A study of Mus musculus with 6 samples.

Results

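Pregnancy-specific glycoprotein (Psg) genes were examined in subcutaneous H22 tumours of control and luteolin-treated mice. The members were the rows of the deposited table named Psg followed by a number with a mean of at least 1 CPM (counts per 1000000 counts of the library total) over the 6 libraries. Of 21720 gene symbols, 13 were such Psg genes, and 2 of these 13, Psg17 and Psg19, reached that mean. The members were thus chosen by their mean level, and Psg17 had also been singled out earlier for its difference between the groups, so its difference is given as a description with no test. Psg17 averaged 11.8 CPM and Psg19, the member closest to the limit, 2.23 CPM, while Psg16, the next gene down, averaged 0.0862 CPM.

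PSG proteins are secreted glycoproteins built from immunoglobulin-like domains and belong to the carcinoembryonic antigen family, together with the Ceacam genes. In rodents and primates they are made mainly by trophoblast cells of the placenta and are known for acting on immune and endothelial cells of the mother. Mouse PSG17 binds the tetraspanin CD9, and PSG proteins have been reported to induce anti-inflammatory cytokines in macrophages and to activate latent TGF-β. Tumours can also express members of the carcinoembryonic antigen family outside the tissue in which they are normally made.

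H22 is a mouse hepatocellular carcinoma line, labelled WT, which was injected under the skin of immunocompetent female BALB/c mice aged 6 to 8 weeks. Both groups were treated by gavage once a day for 21 days in 0.2 mL, from a tumour volume of about 50 mm3. The control group received 0.5% carboxymethyl cellulose sodium and the luteolin group 200 mg/kg of luteolin, a plant flavonoid, and each gave 3 tumour libraries. The labels do not say whether the libraries of a group came from separate mice, so that the p-values measure the spread between these libraries only.

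Totals ranged from 61081637 to 80442954 counts per library. Where a gene was at 0, up to 3 counts remain possible, which is between 0.0359 and 0.0490 CPM and covers counting error only. Multiples of 4 made up 44.8% of the low values (1 to 40), so 1 unit need not be 1 read pair, and at 12 counts the limit is between 0.144 and 0.196 CPM. Among hepatoma markers, Epcam lay between 119 and 135 CPM and Afp between 43.4 and 66.7 CPM in the control libraries. Of 12 hepatocyte genes, Hnf4a, Ttr, Cps1, Apob and Fgb were each at 0 in control replicates 1 and 3. Alb (3.06 and 0.868 CPM), Ass1 (3.78 and 6.13 CPM), Serpina1a and Apoa2 were above 0 in both. Apoa1 and Tat were above 0 in control replicate 1 only, and Cyp2e1 in control replicate 3 only. All 12 were above 0 in control replicate 2. The summed level of 12 hepatocyte genes was 7.30 to 76.5 CPM in the control group and 71.0 to 208 CPM in the luteolin group. Values per library below are CPM after TMM normalization unless stated otherwise, with the replicates of a group in the order 1, 2, 3.

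Psg17 and Psg19 are separate, adjacent genes of similar sequence, and the stretches printed here show how far reads could tell them apart. In GENCODE M21 on GRCm38, a build that differs from the mm39 listed by the submitters, Psg19 (ENSMUSG00000004542.15) lies at chr7:18789567-18798520 and Psg17 (ENSMUSG00000004540.7) at chr7:18813937-18821607, both on the minus strand. The space between them is 15416 bases, and 0 other annotated genes overlap either of them. Each has a coding sequence of 1425 bases, and the coding sequences are identical at 87.1% of positions without a gap. The stretch of 120 coding bases in which they differ most, bases 907 to 1026 from the start codon, holds 27 differences, shown in capitals:
Psg17: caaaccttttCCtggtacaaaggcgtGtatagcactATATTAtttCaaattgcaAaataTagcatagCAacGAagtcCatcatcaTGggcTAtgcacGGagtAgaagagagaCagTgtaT
Psg19: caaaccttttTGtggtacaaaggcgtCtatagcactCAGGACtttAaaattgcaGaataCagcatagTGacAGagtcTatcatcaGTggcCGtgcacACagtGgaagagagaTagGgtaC

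The stretch of 120 coding bases in which they differ least, bases 666 to 785, holds 3 differences, again in capitals:
Psg17: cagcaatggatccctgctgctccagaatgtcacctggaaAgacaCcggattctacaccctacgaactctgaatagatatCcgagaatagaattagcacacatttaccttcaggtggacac
Psg19: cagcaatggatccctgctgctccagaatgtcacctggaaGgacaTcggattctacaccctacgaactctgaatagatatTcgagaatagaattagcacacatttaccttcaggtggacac

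None of the 1951 stretches of 150 bases (the read length) in the Psg17 transcript, and none of the 1956 in the Psg19 transcript, occurred in a transcript of another gene. Within these annotated transcripts, reads without errors could thus be assigned to 1 of the genes over their whole length. A read from the more similar stretch is, however, separated by few bases. The rest of the genome was not searched, and the sequences are those of the reference, not of H22. Among the other Psg genes, the closest to Psg17 in coding sequence was Psg26 with 87.6% identity, and the closest to Psg19 was Psg22 with 93.9%. Psg26 had 0 counts in all 6 libraries and Psg22 had 5 counts, all in control replicate 1.

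**Figure D1:**
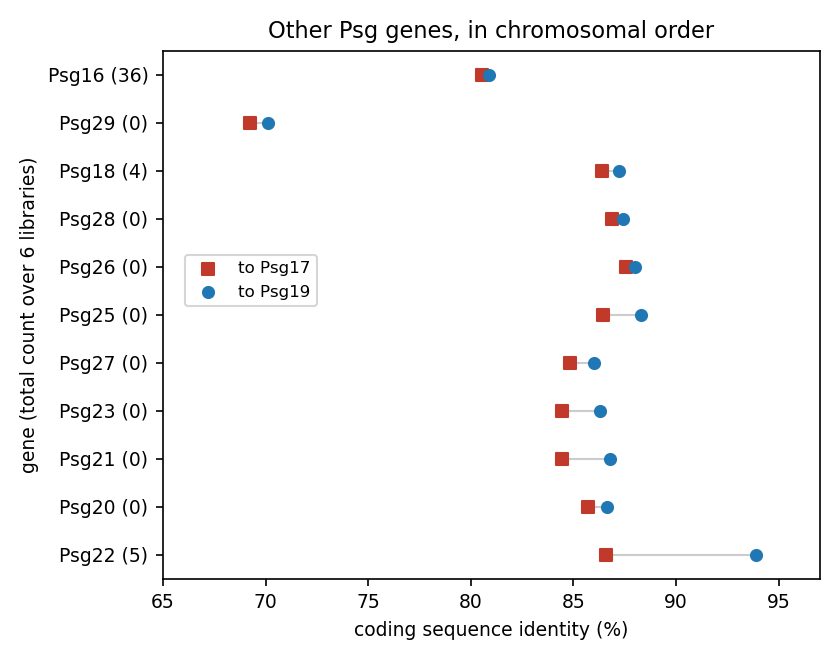
Identity of the coding sequence (x axis, %) of the 11 other Psg genes (y axis, in chromosomal order, with their total count over the 6 libraries in brackets) to Psg17 (squares) and to Psg19 (circles). Psg22 is the closest to Psg19 at 93.9%, and Psg29 the most distant from both members at 69.3% and 70.1%.

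The family was nearly silent apart from these members. Of the 13 genes, 8 (Psg20, Psg21, Psg23, Psg25, Psg26, Psg27, Psg28 and Psg29) had 0 counts in every library. Psg16, which unlike most of the family is also known from the brain, had 22 counts in control replicate 3, 10 in luteolin replicate 2 and 4 in luteolin replicate 3. Psg18 had 4 counts in luteolin replicate 1. The 11 non-members held 45 of the 5726 counts of the family, and 0 of them passed the filter on low counts, against 2 of 2 members. No test was therefore made for the non-members.

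Psg17 was the predominant member. It lay at 18.8, 19.8 and 15.4 CPM in the control tumours, against 5.81, 5.67 and 5.65 CPM in the luteolin-treated tumours. The luteolin libraries were thus close to each other, and the highest of them was below the lowest control library. At 356, 474 and 361 counts, counting error alone would be expected to spread the luteolin libraries more. Their closeness therefore says little on the variation between them. The means were 18.0 ± 2.29 CPM in the control group and 5.71 ± 0.0882 CPM in the luteolin group (SD, n = 3 each). The luteolin mean was 31.7% of the control mean, and the log2 fold change was -1.66 (standard error 0.22).

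Psg19 was also lower in the luteolin group. The gene had 2.99, 2.89 and 3.89 CPM in the control tumours, against 1.01, 1.09 and 1.61 CPM in the luteolin-treated tumours. Its groups did not overlap either, although luteolin replicate 3 stood above the other luteolin libraries and control replicate 3 above the other controls. The means were 3.26 ± 0.553 CPM and 1.24 ± 0.326 CPM (SD, n = 3 each), so that the luteolin group had 38.0% of the control level. The log2 fold change was -1.39 (standard error 0.40), which passed the threshold that the study used (unadjusted p under 0.05 together with a fold change over 2). It missed the limit of 0.05 after Benjamini-Hochberg adjustment over all 14963 genes (adjusted p = 0.132, quasi-likelihood F-test of edgeR).

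For comparison with these members, 1.52% of all genes tested were lower at the study's threshold and 0.187% were lower at an adjusted p under 0.05. Those higher were 11.3% and 1.34%. The libraries of the luteolin group lay below all control libraries for 12.8% of the genes tested and above them for 15.9%, so that a lack of overlap alone was common. The median log2 fold change over all genes tested was -0.01. In a bulk tumour, fewer Psg-expressing cells and less Psg mRNA per cell cannot be told apart.

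**Figure D2:**
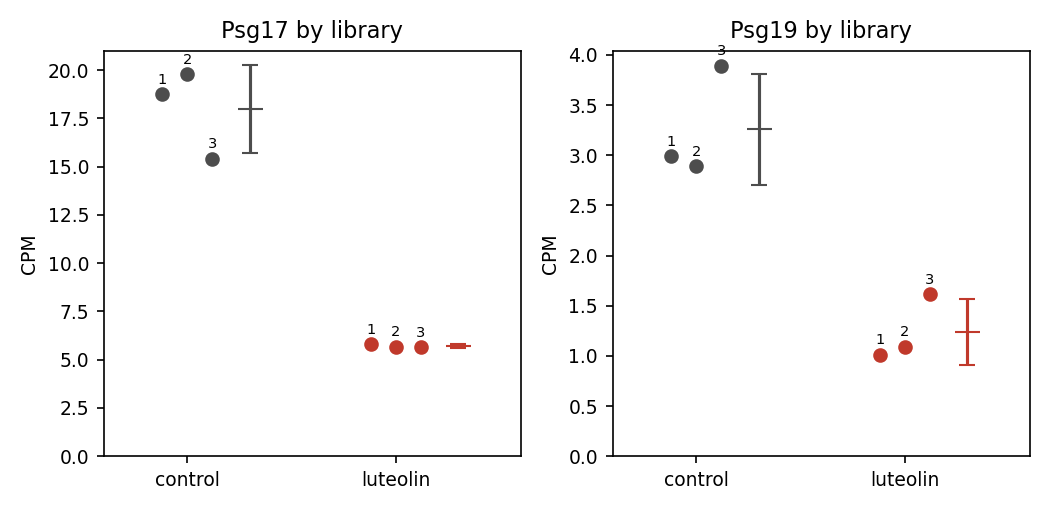
Level of Psg17 (left) and Psg19 (right) in CPM (y axis, from 0) in each control (grey) and luteolin (red) library, numbered by replicate, with the mean and SD of 3 libraries beside them. All luteolin libraries lie below all control libraries for both genes.

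The proportion between the members was then examined, since a ratio within a library does not depend on its normalization. The count of Psg19 was 0.159, 0.146 and 0.253 of that of Psg17 in the control tumours, against 0.174, 0.192 and 0.285 in the luteolin-treated tumours. Psg19 took its largest share in control replicate 3 and luteolin replicate 3, and the groups overlapped. The difference between the groups in this ratio, 0.186 ± 0.0580 against 0.217 ± 0.0597 (SD, n = 3 each), was within the spread between replicates (exact two-sided permutation test, p = 0.5). Per kilobase of transcript (2100 bases for Psg17 and 2105 for Psg19), the level of Psg17 was 8.57 ± 1.09 CPM per kb in the control group against 1.55 ± 0.262 for Psg19, and 2.72 ± 0.0420 against 0.588 ± 0.155 in the luteolin group (SD, n = 3 each). Psg17 was thus between 3.51 and 6.87 times as abundant as Psg19 per transcript length in each of the 6 libraries.

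Summing the family removes any dependence on how reads were divided among its genes. The sum of all 13 Psg genes was 21.8, 22.7 and 19.6 CPM in the control tumours, against 6.89, 6.88 and 7.32 CPM in the luteolin-treated tumours. It stayed at 32.9% of the control level in the luteolin group, with means of 21.4 ± 1.56 and 7.03 ± 0.252 CPM (SD, n = 3 each). Since Psg17 made up between 77.1% and 87.3% of the sum in each library, this is a description of the same difference. The sum of the 12 genes other than Psg17 had a log2 fold change of -1.36 (standard error 0.40; quasi-likelihood F-test of edgeR, adjusted p = 0.137). Psg19 held 903 counts of that sum over all libraries and the 11 non-members held 45. The result is therefore mostly that of Psg19 again and says little on the other genes.

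The call for Psg19 depended on the tool. DESeq2 gave a log2 fold change of -1.41 with an adjusted p of 0.00963, and limma's voom with sample quality weights gave -1.41 with an adjusted p of 0.0168. With 1 library left out at a time, the log2 fold change of Psg19 in edgeR lay between -1.68 (without luteolin replicate 3) and -1.25 (without control replicate 3), and that of Psg17 between -1.76 and -1.59.

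**Figure D3:**
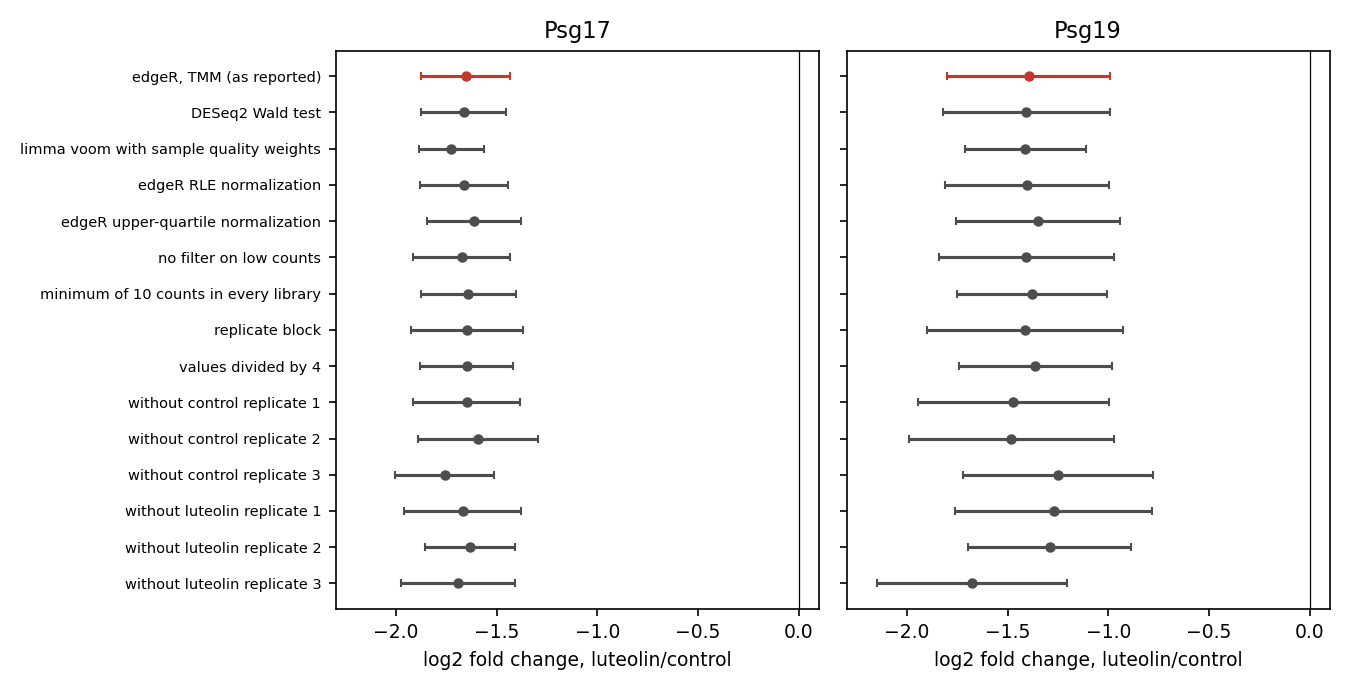
Log2 fold change of luteolin over control (x axis) with its standard error for Psg17 (left) and Psg19 (right) in the analysis as reported (red) and in each alternative setting (grey, y axis). All estimates lie below 0, from -1.76 to -1.59 for Psg17 and from -1.68 to -1.25 for Psg19.

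The region around the genes was described next, to see whether the lower level extended along the chromosome. In the RefSeq gene order, the larger Psg cluster ends with Psg22, Psg19 and Psg17, and Mill2 follows Psg17. Mill2, which encodes an MHC class I-like molecule, had 199, 157 and 254 counts in the control tumours, against 71, 113 and 96 counts in the luteolin-treated tumours. It fell at the study's threshold with a log2 fold change of -1.20 (standard error 0.40; quasi-likelihood F-test of edgeR, adjusted p = 0.168). That call was lost without control replicate 3 (-0.98) and without luteolin replicate 1 (-1.11). The 3 expressed genes that follow each other here, Psg19, Psg17 and Mill2, thus had all luteolin libraries below all control libraries. The same held for 12.8% of all genes tested. Pglyrp1, the gene after Mill2, went the other way without overlap. It had 0.698 ± 0.262 CPM in the control group and 2.53 ± 1.44 CPM in the luteolin group (SD, n = 3 each).

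Most genes of the region had small fold changes. Of 34 tested protein-coding neighbours within 500 kb of a Psg gene, 15 had a negative and 19 a positive log2 fold change, with a median of 0.02, and 24 lay within 0.5 of 0. At the study's threshold 2 were lower, against 1.52% of all genes, and 4 were higher, against 11.3%. The lower ones were Mill2 and Foxa3, which encodes a transcription factor of the liver, with a log2 fold change of -1.67 and 0.983 ± 0.147 against 0.309 ± 0.104 CPM (SD, n = 3 each). The higher ones were Ptgir, the prostacyclin receptor gene (1.13), Pglyrp1, which encodes a peptidoglycan recognition protein (1.86), the transcription factor gene Fosb (1.36) and Hif3a, which had 5, 0 and 0 counts in the control tumours, against 20, 20 and 16 in the luteolin-treated tumours. Each of the calls for Foxa3, Ptgir, Pglyrp1 and Hif3a was lost when at least 1 library was left out. The most abundant neighbours, the calmodulin gene Calm3 and Sympk, which encodes a scaffold protein of mRNA 3′-end processing, had log2 fold changes of -0.16 and -0.21. Mill1 and Igfl3, which lie between the Psg clusters and were singled out after their values were seen, had 0 counts in each control library. In the luteolin group Mill1 had 63, 805 and 0 counts and Igfl3 had 20, 333 and 5.

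**Figure D4:**
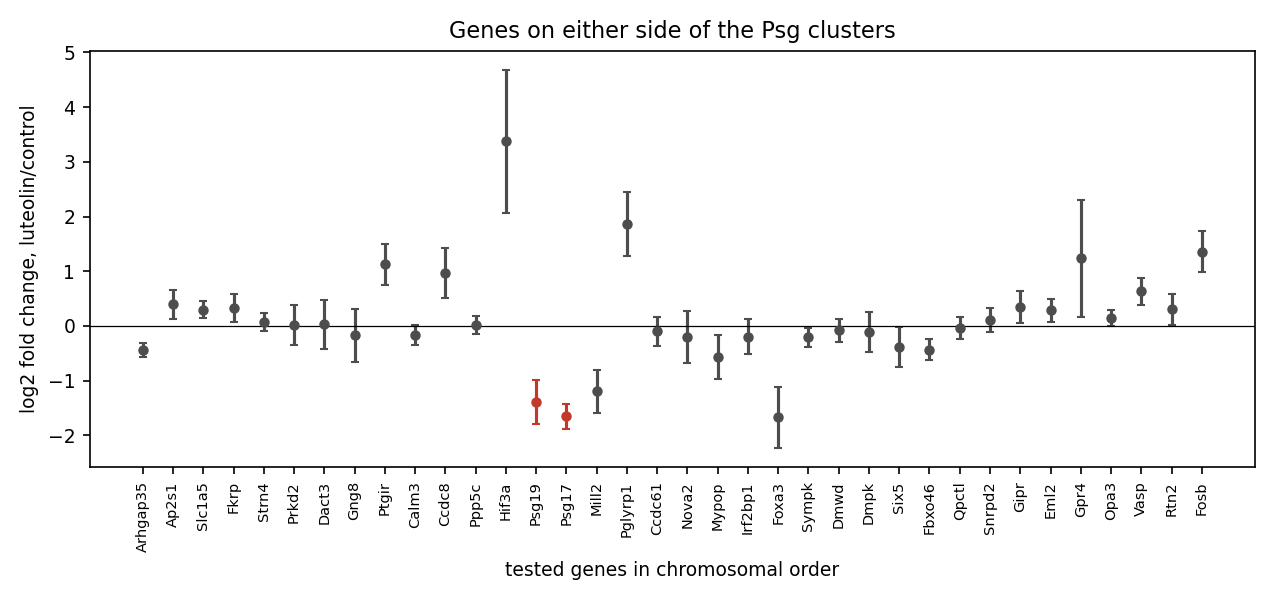
Log2 fold change of luteolin over control (y axis) with its standard error for the tested genes within 500 kb of a Psg gene, in chromosomal order (x axis). Psg19 and Psg17 (red), the next gene, Mill2, and Foxa3 further along (-1.67) lie below -1, while 24 of the 34 neighbours (grey) lie within 0.5 of 0.

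Promoter sequences from RefSeq (GRCm38.p6) held 10 of the 13 Psg genes, Psg17 among them, and had no entry for Psg16, Psg19 and Psg22. The 250 bases before the RefSeq start of Psg17 (chr7:18821592-18821841, minus strand) were compared with those of Psg28 (chr7:18432056-18432305, minus strand), a gene at 0 counts in all libraries. The RefSeq start of Psg17 differs from that of GENCODE, so its window reaches into the gene as placed above. Over 242 aligned bases the 2 sequences were 89.3% identical, and a CACCC box, here on the opposite strand, is in capitals:
Psg17: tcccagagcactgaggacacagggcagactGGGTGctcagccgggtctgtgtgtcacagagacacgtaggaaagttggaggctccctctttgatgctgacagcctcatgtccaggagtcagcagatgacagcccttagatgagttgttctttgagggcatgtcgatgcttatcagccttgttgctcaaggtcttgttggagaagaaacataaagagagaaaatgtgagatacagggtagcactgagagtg
Psg28: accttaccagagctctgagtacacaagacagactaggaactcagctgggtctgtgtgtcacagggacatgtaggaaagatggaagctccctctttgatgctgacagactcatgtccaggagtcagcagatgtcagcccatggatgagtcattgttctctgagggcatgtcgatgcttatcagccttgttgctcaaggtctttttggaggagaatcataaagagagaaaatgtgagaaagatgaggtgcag

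Of 6 motifs searched on both strands, the CACCC box was the only one found before Psg17. It occurred in 3 of the 10 Psg promoters (Psg17, Psg20 and Psg25) and in 54.5% of the promoters of all 27025 genes. Psg25, with the box in the same surrounding sequence as Psg17 (windows 91.4% identical), had 0 counts in all libraries. Psg20 also had 0 counts, but its box is not the same site. Its window starts further along the sequence (59.7% identity to that of Psg17), and its box lies elsewhere and on the other strand. The letters TATAAA were in 0 of 10 and in 14.3% of all, GGGCGG in 0 and 35.4%, CCGGAAG in 0 and 7.83%, CCAAT in 1 and 37.5%, and AGATAA in 1 and 11.4%. None of the 6 motifs contains another.

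Genes that belong to the same pathway were taken from lists written with earlier results known. Of the Ceacam genes, the closest relatives of the Psg genes, 15 of 17 were in the table, 5 had 0 counts in all libraries and 4 were tested. At the study's threshold 1 of these 4 was lower and 1 higher, where 1.52% and 11.3% of all genes tested were. Ceacam2, whose groups did not overlap, had 2.05, 1.98 and 3.27 CPM in the control tumours, against 0.555, 1.07 and 0.720 CPM in the luteolin-treated tumours. It fell at the study's threshold with a log2 fold change of -1.64 (standard error 0.48; quasi-likelihood F-test of edgeR, adjusted p = 0.135). Ceacam1, its close relative and a known inhibitory receptor of immune cells, had 4.58 ± 1.35 CPM in the control group and 5.02 ± 1.06 CPM in the luteolin group (SD, n = 3 each), which overlapped. Ceacam19 rose at the study's threshold, from 0.243 to 0.803 CPM in the control libraries to 2.47, 25.1 and 1.31 CPM in luteolin replicates 1, 2 and 3, and its log2 fold change of 4.28 was 1.96 without luteolin replicate 2.

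Binding partners of PSG proteins were expressed in both groups. Of the 13 genes listed, all of which were tested, 4 were higher at the study's threshold and 0 were lower, where 11.3% and 1.52% of all genes tested were. Their median log2 fold change was 0.30, against -0.01 over all genes tested. Cd9, the receptor of PSG17, had 203 ± 29.5 CPM in the control group and 249 ± 54.8 CPM in the luteolin group (SD, n = 3 each), and the groups overlapped. Itgb3, which encodes an integrin chain of platelets and osteoclasts, was at 7.50, 8.53 and 8.58 CPM in the control tumours, against 23.4, 22.0 and 17.1 CPM in the luteolin-treated tumours. It rose by 1.35 on the log2 scale (standard error 0.22; quasi-likelihood F-test of edgeR, adjusted p = 0.0437) and was the only listed partner at an adjusted p under 0.05. Among the heparan sulphate carriers, Sdc1 rose by 1.25 and Sdc2 by 1.31 on the log2 scale, and Tgfb2, which encodes a latent growth factor, by 1.24. The call for Sdc1 was lost without luteolin replicate 2 (0.82), and that for Tgfb2 without control replicate 1, luteolin replicate 1 or luteolin replicate 3. The most abundant partners, Lgals1 and Sdc4, had log2 fold changes of -0.15 and 0.10, which did not pass either threshold.

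Of the 5 genes whose products PSG proteins are reported to induce, 2 were higher at the study's threshold, as were 11.3% of all genes tested. Vegfc, a lymphangiogenic factor, rose from 0.517 ± 0.214 to 2.26 ± 0.496 CPM and Il6 from 0.240 ± 0.121 to 1.42 ± 1.07 CPM (SD, n = 3 each), with log2 fold changes of 2.13 and 2.56. The call for Il6 was lost without control replicate 1 or luteolin replicate 1. Il10 had 0, 0.525 and 0.326 CPM in the control tumours, against 1.93, 4.03 and 0.861 CPM in the luteolin-treated tumours. Its luteolin libraries lay above all control libraries, as for 15.9% of all genes tested. Its unadjusted p was 0.0544 (quasi-likelihood F-test of edgeR). Vegfa did not overlap either (118 to 137 against 146 to 266 CPM), while Tgfb1 did. The more abundant Vegfa and Tgfb1 had log2 fold changes of 0.78 and 0.16. Like Il10, they did not pass the study's threshold. Of 6 transcription factors known from work on PSG promoters, Rxra alone passed it (11.3% of all genes tested were higher), with a log2 fold change of 1.57, and that call was lost without control replicate 2 (1.51), control replicate 3 (1.45) or luteolin replicate 2 (0.69). Sp1 and Klf6, the most abundant of them, had log2 fold changes of -0.35 and 0.02.

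**Figure D5:**
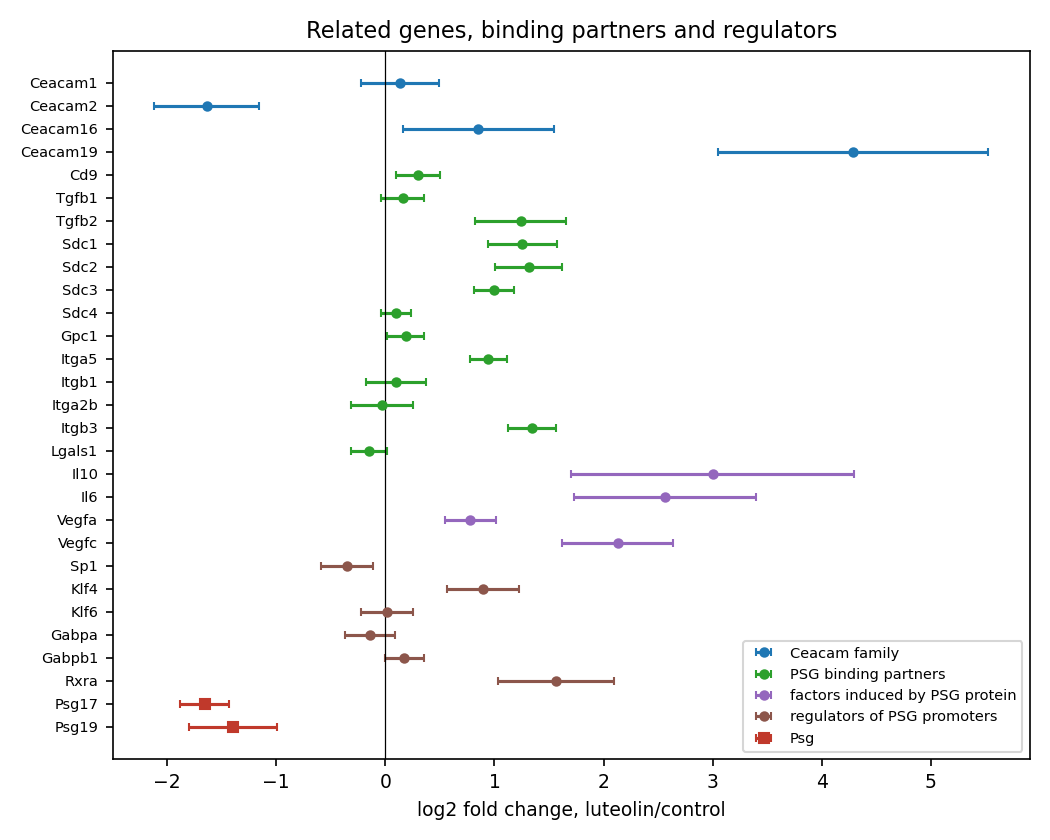
Log2 fold change of luteolin over control (x axis) with its standard error for tested Ceacam genes, binding partners of PSG proteins, factors they induce and regulators of their promoters (circles, by colour), with Psg17 and Psg19 (squares) at the bottom. Ceacam2 is the one gene besides the Psg members below -1.

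Markers of other cells were summed in each library. The trophoblast list held 34 genes, of which 20 had 0 counts in every library, among them Tpbpa, Gcm1, Hand1, Prl3d1 and Prl3b1. The remainder summed to between 13.3 and 88.9 CPM in the control group and between 44.2 and 148 CPM in the luteolin group, and 0 of the 5 tested genes passed either threshold. The proliferin gene Prl2c2 varied most, from 0.415 to 52.2 CPM in the control group and up to 79.9 CPM in the luteolin group. Its close paralog Prl2c3, with which it may share reads, ranged from 0.501 to 28.9 CPM and from 3.45 to 58.4 CPM. The transcription factor gene Tfap2c, which is also expressed in other epithelia, was at 0 in the control libraries, against 1.22, 21.6 and 0.0782 CPM in luteolin replicates 1, 2 and 3. Ascl2 and Peg10 were also higher in every luteolin library, at up to 1.21 and 0.939 CPM. Prl8a9, which was too low to be tested, was at 0.129, 0.0927 and 0.310 CPM in the control tumours and at 0 in the luteolin-treated ones. The oncofetal list (9 genes in the table, Sall4 at 0 in all libraries) summed to 184 to 197 CPM in the control libraries and to 96.1 to 156 CPM in the luteolin libraries, of which Epcam made up 46.6 to 102 CPM and Afp 32.7 to 41.8 CPM in the luteolin group. Of its 5 tested genes, 0 were lower and 1, Gpc3, was higher by the study's threshold, where 1.52% and 11.3% of all genes tested were. The erythroid list was also lower in sum, with 26.9 to 35.4 against 8.14 to 23.7 CPM and 1 of 5 tested genes (Hbb-bs) lower, where 1.52% of all genes tested were. The proliferation list overlapped, with 2357 to 3446 against 1717 to 2680 CPM.

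Lists of stromal and immune cells were higher in sum in the luteolin group. The T cell list summed to 14.4 to 16.96 CPM in the control libraries and 50.5 to 95.4 CPM in the luteolin libraries, with 8 of 8 tested genes higher at the study's threshold, to be read, like the counts that follow, against 11.3% of all genes tested. The leukocyte list summed to 1076 to 1084 against 1230 to 1468 CPM (5 of 8 higher), the macrophage list to 980 to 1127 against 1612 to 2300 CPM (2 of 8) and the fibroblast list to 1435 to 1597 against 2077 to 5115 CPM (5 of 8). The most abundant leukocyte genes, Lcp1 and Itgb2, had log2 fold changes of -0.26 and -0.04. The keratinocyte list summed to 14.4 to 18.6 CPM in the control libraries and to 399, 9261 and 21.7 CPM in luteolin replicates 1, 2 and 3, with 9 of 10 tested genes higher. The endothelial list (83.9 to 105 against 105 to 268 CPM), the skeletal muscle list (541 to 1202 against 265 to 1189 CPM) and the adipocyte list (19.3 to 73.3 against 20.0 to 319 CPM) overlapped. The part of any of these cells in the lower Psg level was not tested.

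Finally, the genes with the pattern most like Psg17 were listed by the Pearson correlation of log2 CPM over the 6 libraries, which fall into 2 groups and so carry the difference between them. They were Rbmxl1 (r = 0.998), Wdr1 (0.998), Espnl (0.994), Klhl10 (0.994) and Fbxo25 (0.992). Klhl10, known as a gene of the male germ line, and Espnl, a relative of the actin-bundling gene Espn, had log2 fold changes of -2.48 and -1.65. Klhl10 lay at 1.43 ± 0.165 CPM in the control group and 0.254 ± 0.0409 CPM in the luteolin group, and Espnl at 5.29 ± 0.496 and 1.69 ± 0.132 CPM (SD, n = 3 each). Wdr1, which encodes an actin-disassembling protein, Rbmxl1 and Fbxo25 moved less, with log2 fold changes of -0.30, -0.46 and -0.72. Since likeness to Psg17 chose these genes, their differences are a description.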

How the data were processed

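The authors deposited a table with 1 whole number for each gene symbol in each library, and the analysis treated these unscaled values as estimated counts. The submitters' processing notes list bcl2fastq 2.0, HISAT2, StringTie and DESeq2 with no role, and the builds mm39 and rn6. All 6 libraries were used, and 0 columns were left out. The library totals, from 61081637 to 80442954, set the counting precision.

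Counts were compared in R 4.3.3 with edgeR 4.0.16 (TMM, filterByExpr, quasi-likelihood test, no covariates), with Benjamini-Hochberg adjustment over the 14963 genes tested, and log2 CPM had a prior count of 2. Genes at the study's threshold had an unadjusted p under 0.05 and an absolute log2 fold change over 1. Single values were compared by exact permutation, whose smallest p for 3 against 3 is 0.1. Alternatives were DESeq2 1.42.0, limma 3.58.1 voom, RLE and upper-quartile normalization, no filter, a minimum of 10 counts, values divided by 4, a replicate block, and leaving out 1 library at a time. The pipeline was tested on simulated data. Transcripts and gene order came from GENCODE M21 and RefSeq on GRCm38, and promoters from RefSeq. Coding sequences were aligned globally with Biopython, using the longest coding transcript of each gene.

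Members and gene lists were chosen with earlier results of these data known. Named were the members, the genes of the pathway lists and the neighbours at either threshold with the 2 most abundant of each, and the 5 genes most like Psg17. Of the marker lists, not every gene at a threshold was named. Cd9, Mill1, Igfl3 and Il10, the uncalled Ceacam1 and the marker genes named beside their lists were added for their role or their values.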

Additional observations from a re-analysis of the deposited data

How the results depend on the processing

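The log2 fold changes of Psg17, Psg19, the family sum and the sum without Psg17 stayed negative in each of 14 alternatives. Psg17 lay between -1.76 and -1.59 over all of them. The family sum lay between -1.68 and -1.57 with 1 library left out and between -1.67 and -1.56 otherwise. The difference of the family sum was -14.4 CPM, -13.9 CPM with column totals and -1.60 on the log2 scale, given as a description since Psg17 makes up most of the sum. Psg19 passed an adjusted p of 0.05 in DESeq2 (-1.41) and voom (-1.41) and in no other setting. Its adjusted p values in the other settings lay between 0.0976 and 0.363. The sum without Psg17, which is mostly Psg19, also passed in DESeq2 (-1.37) and voom (-1.34) alone. With 1 library left out, Psg19 ranged from -1.68 to -1.25 and the sum without Psg17 from -1.62 to -1.17.

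Counts of genes at an adjusted p under 0.05, higher and lower, were 200 and 28 as reported, 1543 and 415 in DESeq2, 1886 and 1311 in voom, 345 and 47 with a minimum of 10 counts and 327 and 46 with values divided by 4. With 1 library left out they ranged from 0 to 276 higher and from 0 to 36 lower. They were 0 in edgeR without any 1 control library or luteolin replicate 1, where 1907 to 2462 genes had an unadjusted p under 0.05 (3061 as reported, 5483 in voom, and up to 3267 with 1 library left out). Lower genes at the study's threshold were 227 as reported, 498 in voom and between 140 and 305 with 1 library left out. The cause of these moves was not tested.

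With the replicate number as a block, the adjusted counts were 34 and 1, Psg17 had -1.65 and Psg19 -1.41 (adjusted p = 0.271). Deviations of same-numbered libraries correlated at -0.20, -0.09 and 0.06, and 0 of 3 control libraries correlated best with the luteolin library of its own number, so the numbers were not taken as pairs. Under the block Mill2, Foxa3, Ptgir, Tgfb2 and Il6 missed the study's threshold, as did Sdc1, Rxra and Pglyrp1 in voom and Hif3a in DESeq2 and without a filter. Il6 and Hif3a had no value with a minimum of 10 counts or with values divided by 4. At 62 to 251 counts per library, Psg19 was measured less precisely than Psg17 at 356 to 1312.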
